A study of Zea mays with 18 samples.

Results

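The effect of epibrassinolide (EBL), a brassinosteroid hormone, was measured in primary roots of seedlings of the maize inbred line B73. The roots came from 2 groups with 3 biological replicates each: seedlings treated with EBL at 1 nM for 48 h, and control seedlings. All had germinated for 3 days on moist paper at 25°C without light before they went into nutrient solution. The sources used here do not say whether the control solution held a carrier. These are 6 of the 18 samples of the study, whose other 12 are EBL-treated and control shoots and first leaves. Polyadenylated RNA was sequenced, and the deposited values are RPKM, in which reads are divided by feature length and by library size, with 1 value per group. The spread between replicates is therefore not known, no test could be made, and the depth behind a value is unknown. Of 45260 features listed, 32068 were above 0 in both root columns and were compared: 31553 gene models, 358 non-coding RNA features with ENSRNA identifiers, 119 features with GRMZM5G identifiers and 38 microRNA (miRNA) genes. No root, shoot or leaf marker could be matched to an identifier, so the organ labels were not checked against markers. The columns summed to 962061 RPKM in EBL roots and 952314 RPKM in control roots. The effect given throughout is log2((EBL + 1) / (control + 1)), a scale that understates changes of low values. A feature was called higher or lower when this effect was at least 1 in size, which is 2-fold.

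Brassinosteroids are plant steroid hormones that bind a receptor kinase at the cell surface, which leads to the inactivation of a GSK3-like kinase and lets transcription factors act in the nucleus. In roots they are known for dose-dependent control of cell elongation and of the meristem, and for acting together with auxin on the bending of roots towards gravity. The study asked how the hormone changed growth, the gravity response and gene expression in each organ. A whole root holds many cell types, and in such bulk samples fewer cells of a type and less RNA per cell cannot be told apart.

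The genes with names in these data were the miRNA genes. Plant miRNAs are cut from longer transcripts and direct the cleavage of target transcripts, many of which encode transcription factors. The values here describe the longer polyadenylated transcripts over each locus, not the mature miRNAs. Of 154 miRNA genes listed, 55, from 20 families, were above 0 in at least 1 root column, and 38 of them in both. In EBL roots 7 of these 38 passed 2-fold upwards and 6 downwards, against 0.491% higher and 1.32% lower among gene models. Among ENSRNA features 12.3% were higher and 6.42% lower, so frequent 2-fold gaps were not particular to miRNA genes. Many miRNA genes stood low, with a mean under 5 RPKM for 16 of the 38. At a mean of at least 5 RPKM over both root columns, 5 of 22 were higher and 4 lower. At that level 0.507% of gene models were higher and 1.61% lower, and 37 of 256 ENSRNA features were higher and 19 lower. The median effect of the 38 was 0.15, against 0.03 for gene models. Members of a family that are named below without passing 2-fold were chosen after their values were seen.

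Families that act on auxin signalling are taken first, a grouping made after the values were seen. Their compared members were 2 in MIR160, 4 in MIR167 and 1 in MIR393. Of these, MIR160b and MIR167d passed 2-fold upwards and MIR167b and MIR393b downwards. Over all 38 miRNA genes compared, 13 passed 2-fold. The MIR160 and MIR167 families target auxin response factors, transcription factors that read out the hormone, and MIR393 targets the auxin receptors. MIR160b stood at 46.4 RPKM in EBL roots and 22.02 RPKM in control roots (effect 1.04). The other MIR160 member measured, MIR160d, stood at 22.4 RPKM in EBL roots and 18.5 RPKM in control roots, short of 2-fold. Both were higher with EBL, as were 22 of all 38 miRNA genes compared. The summed level of the family was 68.8 RPKM in EBL roots against 40.5 RPKM in control roots.

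The MIR167 family was split. MIR167b stood at 0.0125 RPKM in EBL roots and 24.9 RPKM in control roots (-4.67), and a value so near 0 may be a failed estimate. MIR167e was listed at 0 in EBL roots and stood at 8.70 RPKM in control roots. MIR167d went the other way, at 4.85 RPKM in EBL roots against 0.954 RPKM in control roots (1.58). MIR167f, at 2.45 and 1.65 RPKM in EBL and control roots, and MIR167g, at 0.735 and 0.577 RPKM, differed by less than 2-fold. With 7 members above 0, the family summed to 8.05 RPKM in EBL roots and 38.2 RPKM in control roots, a gap made mostly by MIR167b and MIR167e. MIR393b stood at 5.14 RPKM in EBL roots and 16.1 RPKM in control roots (-1.48). Outside roots it was at or near 0, with a listing at 0 in both shoot columns, and it stood at 0.189 RPKM in EBL leaves and 0.0374 RPKM in control leaves.

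Families that act on growth and patterning, also set together after the values were seen, held members past 2-fold too. Their compared members were 2 in MIR166, 4 in MIR396, 5 in MIR156 and 4 in MIR169. Of these, MIR166d, MIR396e and MIR156d passed 2-fold upwards and MIR169c, MIR169e and MIR169j downwards. Such calls were also frequent over all 38 miRNA genes compared, where 13 passed 2-fold, 7 upwards and 6 downwards. MIR166 targets class III homeodomain-leucine zipper genes, which pattern the vascular tissue of roots and the upper and lower faces of leaves. MIR166d stood at 56.7 RPKM in EBL roots and 25.8 RPKM in control roots (1.10). MIR166a stood at 11.6 and 6.17 RPKM in EBL and control roots (0.82), and MIR166c was at 4.38 RPKM in EBL roots and listed at 0 in control roots. All of the 3 members above 0 were thus higher with EBL, and the family summed to 72.7 RPKM in EBL roots against 31.98 RPKM in control roots. By sign, 22 of all 38 miRNA genes compared were higher.

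MIR396 targets growth-regulating factors, which promote cell division. MIR396e stood at 28.1 RPKM in EBL roots and 8.10 RPKM in control roots (1.68), and MIR396d at 65.7 and 43.1 RPKM (0.60). MIR396a stood at 23.4 RPKM in EBL roots and 31.0 RPKM in control roots (-0.39), and MIR396c at 7.25 and 13.4 RPKM (-0.81). Of the 4 members only MIR396e passed 2-fold, and their sum was 124 RPKM in EBL roots and 95.6 RPKM in control roots.

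MIR156 targets SPL transcription factors that time the change from juvenile to adult growth. MIR156d stood at 7.90 RPKM in EBL roots and 3.42 RPKM in control roots (1.01), which falls short of 2-fold under some other scalings. The most abundant member in roots, MIR156k, stood at 46.6 RPKM in EBL roots and 61.4 RPKM in control roots (-0.39), and MIR156f at 25.3 and 24.8 RPKM (0.03). The family sum was 85.3 RPKM in EBL roots and 92.3 RPKM in control roots, so the call on MIR156d was not shared by the family.

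MIR169 targets NF-YA transcription factors. MIR169c stood at 6.06 RPKM in EBL roots and 16.7 RPKM in control roots (-1.33). MIR169e stood at 2.80 RPKM in EBL roots and 7.91 RPKM in control roots (-1.23). MIR169j stood at 0.00648 RPKM in EBL roots and 2.18 RPKM in control roots (-1.66), with an EBL value near 0. All of the 4 members compared were lower with EBL, including MIR169i at 2.32 and 2.89 RPKM in EBL and control roots (-0.23). By sign, 16 of all 38 miRNA genes compared were lower. MIR169b was at 0.783 RPKM in EBL roots and listed at 0 in control roots. The family summed to 11.97 RPKM in EBL roots and 29.7 RPKM in control roots.

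The pair of most abundant miRNA genes of roots, MIR164b and MIR171f, differed by less. MIR164b, of a family that targets NAC transcription factors and acts on lateral roots, stood at 398 RPKM in EBL roots and 335 RPKM in control roots (0.25). MIR171f, of a family that targets GRAS transcription factors, stood at 147 and 156 RPKM in EBL and control roots (-0.09). MIR159a, of a family that targets MYB transcription factors, was also close, at 22.2 RPKM in EBL roots and 22.1 RPKM in control roots (0.01).

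The next families, linked to copper and phosphate, were set together after their values were seen. MIR397 targets laccases, copper enzymes that polymerise lignin, and MIR397a stood at 14.8 RPKM in EBL roots and 6.39 RPKM in control roots (1.10). MIR398 targets copper-zinc superoxide dismutases. MIR398a stood at 1.97 RPKM in EBL roots and 0.178 RPKM in control roots (1.33), and MIR398b at 3.01 and 1.44 RPKM (0.72). MIR408b, of another copper-responsive family, was at 12.2 RPKM in EBL roots and listed at 0 in control roots. MIR397, MIR398 and MIR408 are known in Arabidopsis to be induced together when copper is short. Of these members MIR397a and MIR398a passed 2-fold upwards, as did 7 of all 38 miRNA genes compared, and by sign 22 of the 38 were higher. The call on MIR398a rests on a mean of 1.07 RPKM. It falls short of 2-fold when 2 in place of 1 is added to each value (0.87). MIR399g, of the family that responds to phosphate starvation, was at 36.6 RPKM in EBL roots and listed at 0 in control roots.

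The MIR162 and MIR168 families act on the miRNA machinery itself. MIR162, whose family targets the DICER-LIKE enzyme that cuts miRNA precursors, stood at 0.262 RPKM in EBL roots and 1.61 RPKM in control roots (-1.05). MIR168 targets ARGONAUTE, the protein that carries miRNAs. MIR168b stood at 41.4 RPKM in EBL roots and 59.6 RPKM in control roots (-0.52), and MIR168a at 14.9 and 13.3 RPKM (0.15). Besides MIR399g and MIR408b, 6 miRNA genes, MIR166c and MIR169b among them, were listed at 0 in control roots alone, at 4.38 RPKM or less in EBL roots. Besides MIR167e, 8 were listed at 0 in EBL roots alone, at 1.47 RPKM or less in control roots.

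**Figure D1:**
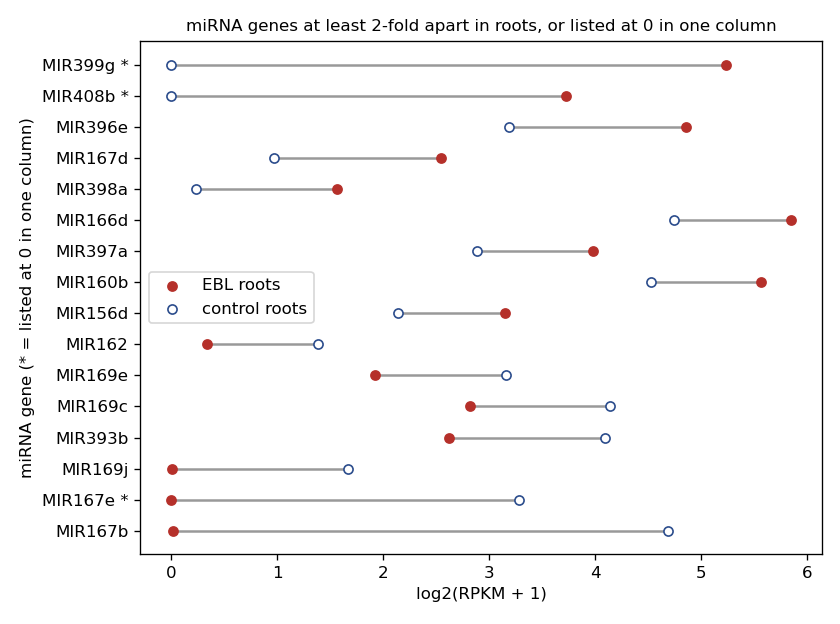
Level of 16 miRNA genes in EBL roots (filled points) and control roots (open points), as log2(RPKM + 1) on the horizontal axis, ordered by the effect of EBL. They are the 13 genes at least 2-fold apart and 3 genes, marked with a star, that were listed at 0 in 1 column and stood at 5 RPKM or more in the other; the widest gaps at the top and bottom, those of MIR399g, MIR408b, MIR167e and MIR167b, involve a value at or near 0.

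The shoots and leaves, which have their own controls, were set beside these values. Of the 13 miRNA genes past 2-fold in roots, 10 could be compared in shoots, where 3 passed 2-fold in the same direction and 1 in the opposite one. In leaves 9 could be compared, with 2 past 2-fold in the same direction and 0 in the opposite one. By sign alone, 5 agreed and 5 did not in shoots, and 3 agreed and 6 did not in leaves, where several effects were close to 0. MiRNA genes short of 2-fold in roots passed it elsewhere too. In shoots these were MIR159f (2.68), MIR396d (2.17), MIR396c (-2.25) and MIR166a (-1.01), and in leaves MIR164d and MIR168a, both upwards. Passing 2-fold in shoots or leaves was thus not particular to the genes called in roots. MIR396e passed 2-fold upwards in all 3 organs, at 11.8 RPKM in EBL shoots against 3.40 RPKM in control shoots and at 10.1 RPKM in EBL leaves against a near-0 value of 0.000181 RPKM in control leaves. MIR166d stood at 18.5 RPKM in EBL shoots and 6.31 RPKM in control shoots, the same direction as in roots, and was listed at 0 in both leaf columns. MIR169j passed 2-fold downwards in shoots as in roots (-1.32 in shoots), with a near-0 EBL shoot value of 0.000149 RPKM. MIR166c was at 4.05 RPKM in EBL shoots and listed at 0 in control shoots. MIR166a, short of 2-fold in roots, went the other way in shoots, at 2.11 RPKM with EBL and 5.25 RPKM in the control (-1.01). MIR397a stood at 22.3 RPKM in EBL shoots and 43.9 RPKM in control shoots, the opposite of its direction in roots but short of 2-fold. MIR160b stood at 0.000517 RPKM in EBL shoots and 12.1 RPKM in control shoots, the opposite of roots, with an EBL value near 0, and at 13.8 RPKM in EBL leaves and 3.76 RPKM in control leaves, the same direction as in roots (1.64). The 3 genes listed at 0 in 1 root column with 5 RPKM or more in the other had like directions elsewhere. MIR399g was at 25.1 RPKM in EBL shoots and listed at 0 in control shoots and both leaf columns. MIR408b was higher with EBL in shoots (0.83) and leaves (1.06). MIR167e was lower in leaves (-1.63) and in shoots (-1.56), there with a near-0 EBL value of 0.000584 RPKM. None of these differences between organs was tested.

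Most gene models differed little between EBL and control roots. The median effect was 0.03, and 18657 gene models were higher and 12895 lower in EBL roots; the median was 0.01 when columns were scaled by their median ratio and 0.02 with quantile normalization, so its size depends on the scaling. The quartiles of the effect were -0.08 and 0.17, and the 5th and 95th percentiles were -0.46 and 0.44. Among large differences, lower values prevailed. At 1.5-fold, 761 gene models were higher and 1072 lower (58.5% of those past it lower). At 2-fold, 155 were higher (0.491%) and 415 lower (1.32%), so that 72.8% of those past it were lower. At 4-fold, 12 were higher and 73 lower (85.9%). The wider the fold asked for, the larger was the lower share.

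The excess of lower gene models was seen at each level above 1 RPKM. Between 1 and 5 RPKM (mean of both root columns), 0.977% of gene models were at least 2-fold higher and 2.05% lower. Between 15 and 50 RPKM the shares were 0.528% higher and 1.70% lower. Among the 583 most abundant gene models, 1 was higher and 9 were lower (1.54%). The share of higher gene models thus shrank with level while that of lower ones stayed between 1.41% and 2.05%. Of the 100 most abundant gene models, 56 were higher and 44 lower with EBL, yet 6 were at least 2-fold lower and 0 at least 2-fold higher. Those 6 stood between 373 and 2223 RPKM in EBL roots and between 1261 and 6011 RPKM in control roots. Summed over gene models, the gains came to 59870 RPKM and the losses to 73759 RPKM, and the 10 largest losses made up 17.1% of the losses, against 5.83% of the gains for the 10 largest gains. Gene models made up 91.9% of the summed RPKM in EBL roots and 94.3% in control roots. The balance of gains and losses therefore depends on how the columns are scaled.

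**Figure D2:**
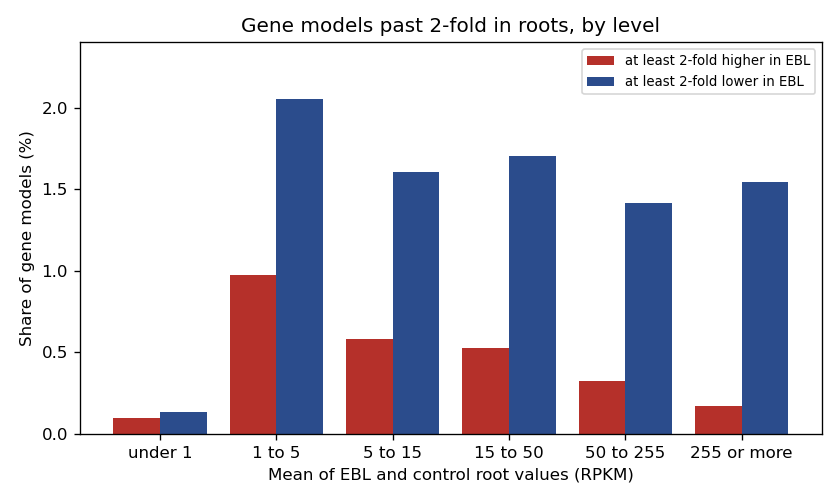
Share of gene models at least 2-fold higher (red, left) and at least 2-fold lower (blue, right) in EBL roots, in percent, by the mean of the EBL and control root values in RPKM. Above 1 RPKM the lower share stays between 1.41% and 2.05%, while the higher share is 0.977% at 1 to 5 RPKM and 0.172% at the highest level.

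To see whether genes of other organs stood out in roots, gene models were grouped by the control shoot and control leaf columns alone, so that the grouping did not use the root values. Leaf-high ones had at least 10 RPKM in control leaves and were at least 8-fold above control shoots on the same scale, and shoot-high ones were the reverse. Leaf-high gene models were 134 of the 415 lower ones (32.3%) and 14 of the 155 higher ones (9.03%), against 1.48% of all compared. Of the 466 leaf-high gene models compared in roots, 358 were lower and 108 higher with EBL, and their median effect was -0.40 against 0.03 for all gene models. Their median level was 3.02 RPKM in EBL roots and 5.90 RPKM in control roots, against 89.1 RPKM in control leaves. All 490 leaf-high gene models, those at 0 included, summed to 6514 RPKM in EBL roots and 9410 RPKM in control roots, which is 0.677% and 0.988% of the columns; 11 were at 0 in both. The gap was found at each level: median effects were -0.31 under 1 RPKM (96 gene models), -0.52 from 1 to 5 RPKM (135), -0.49 from 5 to 50 RPKM (204) and -0.32 above that (31). Whether leaf material in the control roots has a part in this was not tested.

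The shoot-high gene models differed in the other direction and by less. Of 736 compared, 580 were higher and 156 lower in EBL roots, a share of 78.8% higher against 59.1% for all gene models, and their median effect was 0.17. At least 2-fold higher were 12 (1.63%) and lower 12 (1.63%), against 0.491% and 1.32% of all gene models. Many of the higher ones stood low. At a mean of at least 5 RPKM in roots, 5 of 651 were higher (0.768%) and 10 lower (1.54%). Among all gene models at that level, 0.507% were higher and 1.61% lower. They are no markers of shoots, since they are also used in roots, with a median of 25.1 RPKM in EBL roots and 22.6 RPKM in control roots, against 31.5 RPKM in control shoots. Their summed level went against the median effect, at 56149 RPKM in EBL roots and 58286 RPKM in control roots. With both of these groups left out, a choice made after seeing the data, 129 gene models were at least 2-fold higher and 269 lower, and at 4-fold 6 were higher and 24 lower.

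**Figure D3:**
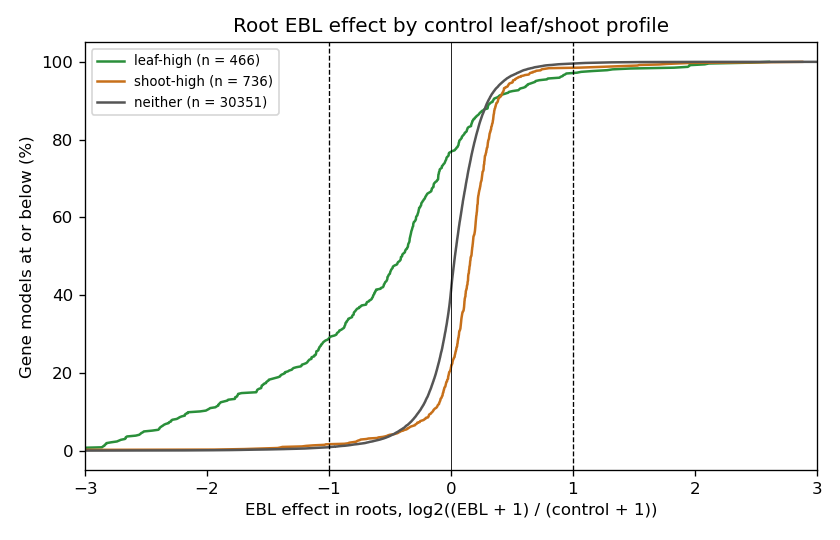
Cumulative share of gene models, in percent, by the effect of EBL in roots (log2, horizontal axis), for leaf-high, shoot-high and remaining gene models. The leaf-high curve lies to the left, with a median of -0.40 and 28.8% of its members at least 2-fold lower, and the shoot-high curve lies to the right, with a median of 0.17.

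**Figure D4:**
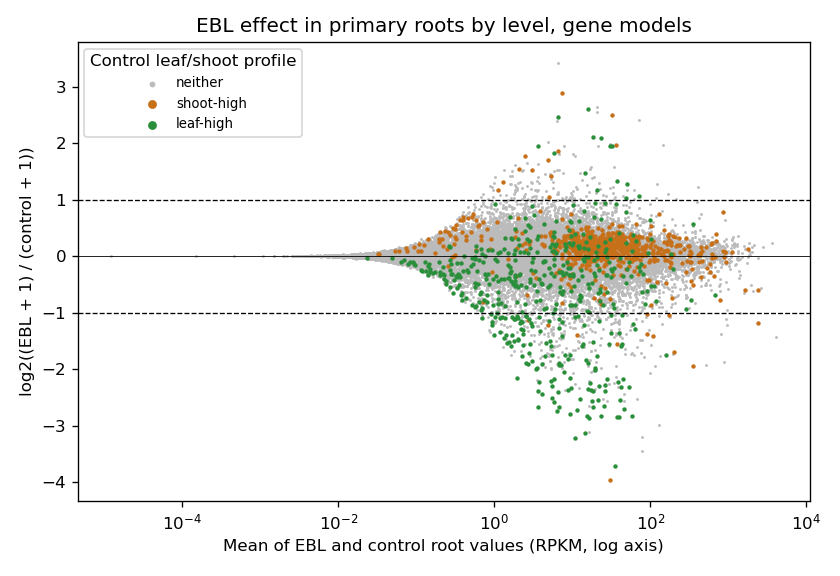
Effect of EBL in roots (log2, vertical axis) by the mean of the EBL and control root values in RPKM (log axis) for 31553 gene models, coloured by profile; dashed lines mark 2-fold. Leaf-high gene models (green) fill much of the area under the lower line, where 134 of 415 points are theirs.

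Root-led gene models were then examined apart. They had a mean of at least 5 RPKM in roots, at or above both control shoots and control leaves. Of 9701 such gene models, 54 were at least 2-fold higher (0.557%) and 105 lower (1.08%), and at 4-fold 4 were higher and 11 lower. Among all gene models with a mean of at least 5 RPKM in roots, 0.507% were at least 2-fold higher and 1.61% lower. The mean holds both root columns, so a gene model could enter through its called column: with the control value alone, 37 of the 54 higher ones and 0 of the 4 past 4-fold would be root-led, and with the EBL value alone 86 of the 105 lower ones and 10 of the 11. These counts are therefore a description. The 105 lower ones had a median of 10.9 RPKM in EBL roots and 30.5 RPKM in control roots. The 54 higher ones had a median of 26.2 RPKM in EBL roots and 8.10 RPKM in control roots. By sign, the lower ones were often lower in EBL shoots too, which have controls of their own. Of 96 that could be compared there, 83 were lower and 13 higher, with a median effect of -0.34. Of all 9618 root-led gene models compared in shoots, 4567 were lower and 5051 higher. At least 2-fold lower in shoots were 7 of the 96 and higher 0, against 63 and 9 of the 9618. The lower ones stood low in shoots, at a median of 2.30 RPKM in the control. In leaves 61 of 92 were lower, against 5388 of 9559. Of the 54 higher ones, 42 could be compared in shoots, where 15 were higher and 27 lower.

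The files and the gene table used here give no names to gene models, so only 4 identifiers are given, the largest effects among gene models with a mean of at least 5 RPKM whose control value, taken alone, was highest in roots. Zm00001d020958 stood at 12.3 RPKM in EBL roots and 145 RPKM in control roots (-3.46). In shoots it was at 66.7 and 66.8 RPKM in EBL and control, so its difference was seen in roots and not in shoots. Zm00001d008523 stood at 14.7 RPKM in EBL roots and 143 RPKM in control roots (-3.20). It stood low elsewhere, at 0.510 RPKM in EBL shoots and 1.49 RPKM in control shoots, and listed at 0 in both leaf columns. Zm00001d018026 stood at 58.6 RPKM in EBL roots and 14.2 RPKM in control roots (1.97). It was higher in EBL shoots as well, at 29.1 RPKM against 11.5 RPKM in control shoots, and stood at 51.6 RPKM in EBL leaves with a listing at 0 in control leaves. Zm00001d021476 stood at 49.02 RPKM in EBL roots and 11.9 RPKM in control roots (1.96). It was listed at 0 in control shoots and in EBL leaves and stood at 9.11 RPKM in EBL shoots and 11.4 RPKM in control leaves, so its values elsewhere jump between 0 and about the root control level.

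All gene models called in roots, root-led or not, were also set beside the other organs. Of the 415 lower in roots, 390 could be compared in shoots: 13 were at least 2-fold lower (3.33%) and 0 higher, against 0.364% lower and 0.0775% higher of all gene models compared in both organs. In leaves 384 could be compared: 19 were at least 2-fold higher and 19 lower, 4.95% each, against 4.12% higher and 0.79% lower of all. Of the 155 higher in roots, 3 of 122 were at least 2-fold higher in shoots and 2 lower. In leaves, 15 of 127 were higher (11.8%) and 8 lower (6.30%). The gene models called in roots thus passed 2-fold in leaves in both directions. By sign alone, 60.8% of those lower in roots and 59.8% of those higher were lower in EBL shoots, against 47.5% of all compared.

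Some gene models were listed at 0 in 1 root column. They numbered 1162 at 0 in control roots alone and 1691 at 0 in EBL roots alone. Most of them stood near 0 in the other column as well, with medians of 0.0344 RPKM in EBL roots and 0.0272 RPKM in control roots. At 5 RPKM or more in the other column were 30 with a listing at 0 in control roots and 36 with a listing at 0 in EBL roots.

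The ENSRNA features, whose individual identity is not annotated in the sources used here, had a median effect of 0.27, against 0.03 for gene models. Of 358 compared, 246 were higher and 112 lower in EBL roots, a share of 68.7% higher against 59.1% of gene models. At least 2-fold higher were 44 (12.3%) and lower 23 (6.42%), against 0.491% and 1.32% of gene models. The spread of the class was also wider, with an interquartile range of 1.02 for the 151 features between 5 and 50 RPKM. Much of the class's RPKM lay in 8 features with a mean of at least 1000 RPKM. Together they stood at 57107 RPKM in EBL roots (5.94% of the column) and 37567 RPKM in control roots (3.94%), a difference of 19540 RPKM, against 23382 RPKM for the whole class.

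Of these 8, 7 were above 0 in both root columns, and none passed 2-fold: 6 were higher in EBL roots and 1 lower, with effects from -0.13 to 0.97. The most abundant stood at 23970 RPKM in EBL roots and 14196 RPKM in control roots (0.76), and the lower one at 1573 and 1724 RPKM. The other feature was listed at 0 in EBL roots and at 2529 RPKM in control roots. In shoots 6 of the 7 were higher with EBL, with effects from -0.15 to 0.62, and in leaves all 7 were, with effects from 0.16 to 1.56. The 119 GRMZM5G features compared stayed within 2-fold, with effects from -0.95 to 0.73 and a median of 0.07; only 2 of them reached a mean of 5 RPKM.

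**Figure D5:**
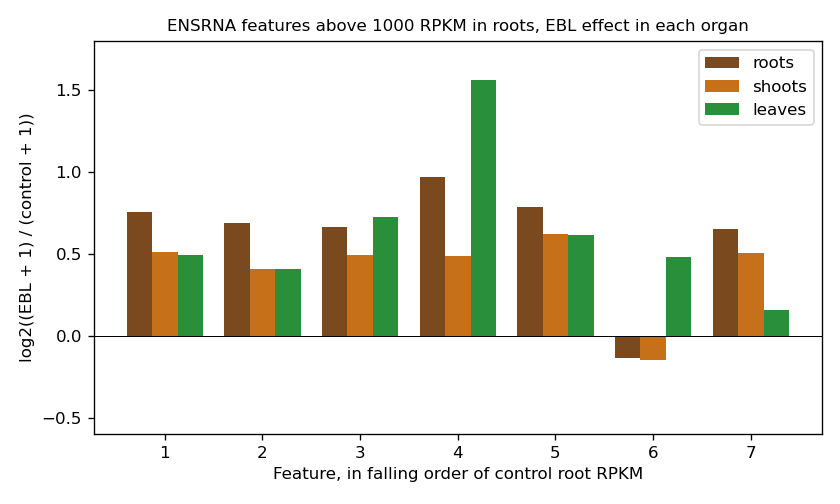
Effect of EBL (log2, vertical axis) on the 7 ENSRNA features with a mean of at least 1000 RPKM in roots and both root columns above 0, with bars for roots, shoots and leaves. In roots and shoots 6 of the 7 bars are above 0, and in leaves all 7 are.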

How the data were processed

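The deposited table holds RPKM values made by the authors, per the file headers, with 1 column for each organ and treatment. The way the 3 replicates of a group were combined is not stated in the sources used here. CASAVA 1.8, Trimmomatic 0.33, TopHat2 2.0.13 and Cufflinks 2.2.1 and the build B73 RefGen_v4 are named, without roles, in the submitters' processing notes. RNA was extracted with TRIzol and DNase-treated, and libraries were made with a stranded TruSeq kit, per the labels' protocols.

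Features were compared when both root columns were above 0, and the effect was log2((EBL + 1) / (control + 1)). Calls rest on size (2-fold), not on a test; the limma model planned for single replicates could not be run. Named were all miRNA genes past 2-fold, those listed at 0 in 1 column with at least 5 RPKM in the other, and the 2 largest rises and 2 largest falls among gene models with a mean of at least 5 RPKM and their highest control value in roots. Members, lists and rules were chosen with earlier results of these data known. RefSeq gene names (assembly Zm-B73-REFERENCE-NAM-5.0) matched 153 features, all miRNA genes; the 21 planned gene lists, and the organ marker lists, therefore had 0 members. The call rule was run on simulated data with an assumed spread of 0.15 log2 at every level. Changes were planted only in gene models with at least 5 RPKM in control roots. The real spread is unknown, so this run does not give the rate of false calls. Alternatives were other pseudocounts, filters, call rules and scalings. Values were computed with pandas 2.3.3 and numpy 2.4.6 in Python 3.11.15, and plots drawn with matplotlib 3.10.9.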

Additional observations from a re-analysis of the deposited data

Results flagged for a closer look

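MIR160b was higher in EBL roots (effect 1.04 on the log2 scale) and lower in EBL shoots (-3.71), past 2-fold in each, with an EBL value there of 0.000517 RPKM, near 0. In leaves it was higher with EBL, as in roots (1.64). It drew attention because roots and shoots went in opposite directions under the same treatment, which rests on that 1 near-0 value; the difference was not tested, since each group has 1 value.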

How the results depend on the processing

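No paired analysis was possible because the deposited columns hold 1 value per group of 3 replicates; for the same reason no replicate could be left out. More gene models passed the fold rule downwards than upwards in EBL roots under every alternative run. Against 155 higher and 415 lower, a pseudocount of 0.1 gave 686 and 900, a pseudocount of 2 gave 89 and 306, and a mean of at least 5 RPKM gave 88 and 280. A 1.5-fold rule gave 761 and 1072, and a 4-fold rule 12 and 73. Added after the data were seen, the set without leaf-high and shoot-high gene models gave 129 and 269, and root-led gene models alone 54 and 105. The 3 other scalings gave 135 to 162 higher and 400.0 to 446 lower. The median effect of leaf-high gene models was -0.69 with a pseudocount of 0.1 and between -0.48 and -0.31 otherwise; that of shoot-high ones was between 0.13 and 0.19. With features listed at 0 in 1 column kept, 11 miRNA genes were higher and 10 lower. MIR156d fell short of 2-fold with a pseudocount of 2 (0.87), median-ratio scaling (0.97) and quantile normalization (0.97), as did MIR162 (-0.67) and MIR398a (0.87) with a pseudocount of 2. Among the miRNA genes and the named gene models, no effect past 2-fold changed sign. A changed pseudocount cannot reverse a sign, and the 3 other scalings moved the gene model median by only -0.023 to 0.014. The unchanged signs therefore say little. Among effects near 0, MIR156f was -0.016 and MIR159a -0.031 after median-ratio scaling, and MIR159a was -0.0074 and MIR390b 0.0059 after quantile normalization. The median over all gene models was 0.01 to 0.06 over these settings. Without the 10 most abundant features of either root column, ENSRNA features took 2.33% of the sum in EBL roots and 1.91% in control roots, against 7.93% and 5.55%.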
